A study of Homo sapiens with 12 samples.

Results

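ATF4 and CHOP are the transcription factors at the centre of the integrated stress response, and the data described here are the RNA levels of 9 genes of that axis in LN229 cells. The 9 genes are ATF4, ATF3, ATF5, DDIT3 (which encodes CHOP), CEBPB, CEBPG, TRIB3, CHAC1 and PPP1R15A. They were chosen by name, with earlier results of these data known, from the 21462 genes listed for every library, and 8 of them were among the 11313 genes whose TPM averaged 1 or more over the libraries. TPM (transcripts per 1e6 transcripts) is the level of a gene per length of its exons as a part of all transcripts of a library. TRIB3 was below that level and was not tested.

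The cells are LN229, a long-established line from a human glioblastoma, IDH wildtype in genotype, and metformin is a widely used drug of type 2 diabetes. The RNA of 12 cultures was sequenced, 6 labelled as given no treatment and 6 given 100 mM metformin for 5 h, all kept in DMEM with fetal bovine serum and antibiotics. The study describes them as independent experiments on this 1 cell line. The comparison asks how gene expression differs between metformin-supplemented and control cells.

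In the integrated stress response, kinases that sense heme loss, viral RNA, unfolded protein or lack of amino acids phosphorylate the alpha subunit of the initiation factor eIF2. General translation then falls, while upstream open reading frames let the mRNA of ATF4, and that of ATF5 and CHOP, be translated better. ATF4 protein pairs with C/EBP proteins and switches on genes of amino acid supply, redox balance and cell death, CHOP and ATF3 among them. PPP1R15A, also named GADD34, closes the loop by bringing a phosphatase to eIF2. Protein was not analysed here, and RNA levels do not show how well an mRNA was translated.

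The response is read at promoters through a composite C/EBP-ATF site, TGATGNAA, and through the cyclic AMP response element, TGACGTCA. RefSeq windows of 300 bases (GRCh38.p14), from 250 bases before to 50 bases after each annotated start, were found for all 9 genes, in 18 windows of which several overlap. TGATGNAA was searched on both strands, as was TGACGTCA, which reads the same on either. TGATGNAA stood in 1 window each of ATF3, CHAC1 and CEBPG, and in 3.62% of all 35116 windows of this length. TGACGTCA stood in the PPP1R15A window and in 1.85% of all windows. The 4 windows are printed because the RNA of 3 of these genes rose with metformin while that of CEBPG did not pass the test on TPM. They lie on the plus strand at chr1:212565157-212565456, chr15:40953221-40953520, chr19:33373863-33374162 and chr19:48872171-48872470, in that order, and capitals mark the matched letters.
ATF3: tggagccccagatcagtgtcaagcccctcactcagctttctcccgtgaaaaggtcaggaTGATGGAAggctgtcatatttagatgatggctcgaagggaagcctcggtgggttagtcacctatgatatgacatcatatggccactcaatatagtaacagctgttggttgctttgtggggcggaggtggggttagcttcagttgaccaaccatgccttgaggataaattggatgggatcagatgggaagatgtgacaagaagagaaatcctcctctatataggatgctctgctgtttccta
CHAC1: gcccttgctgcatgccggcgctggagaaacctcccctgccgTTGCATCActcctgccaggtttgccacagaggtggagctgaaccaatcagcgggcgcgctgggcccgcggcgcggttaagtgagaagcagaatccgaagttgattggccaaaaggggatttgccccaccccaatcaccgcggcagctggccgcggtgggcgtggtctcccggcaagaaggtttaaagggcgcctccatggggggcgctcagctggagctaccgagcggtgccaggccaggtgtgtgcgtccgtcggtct
CEBPG: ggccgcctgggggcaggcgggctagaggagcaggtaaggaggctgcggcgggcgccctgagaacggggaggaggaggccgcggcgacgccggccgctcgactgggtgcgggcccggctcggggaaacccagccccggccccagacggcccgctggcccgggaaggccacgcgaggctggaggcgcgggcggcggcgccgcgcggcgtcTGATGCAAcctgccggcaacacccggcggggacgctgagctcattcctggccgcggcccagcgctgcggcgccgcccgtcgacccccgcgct
PPP1R15A: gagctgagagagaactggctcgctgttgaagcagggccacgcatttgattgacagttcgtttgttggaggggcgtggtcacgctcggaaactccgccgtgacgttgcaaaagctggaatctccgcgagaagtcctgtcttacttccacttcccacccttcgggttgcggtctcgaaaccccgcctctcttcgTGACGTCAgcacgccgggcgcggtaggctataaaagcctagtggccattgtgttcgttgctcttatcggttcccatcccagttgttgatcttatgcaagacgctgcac
Counted with the start as 0, the match begins at -191 in ATF3, -209 in CHAC1, where it is on the minus strand (TTGCATCA), -42 in CEBPG and -58 in PPP1R15A. The shorter motifs CCACG (a part of the ER stress element) and CCAAT, both strands searched, were in 10 and 7 of the 18 windows, which belong to 6 and 5 genes, and in 38.1% and 34.6% of all windows. None of these matches shows that a factor bound there.

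Exon reads totalled 19583535 to 21836186 in the control libraries and 18525144 to 19516144 in metformin replicates 2 to 6, against 14331617 in metformin replicate 1. That library also stood apart in its reads across exon junctions, 38.1 per 100 exon reads against 44.7 to 48.1 in the others, so results that rest on it are given with and without it. Of the glial and glioblastoma markers VIM, NES, CD44, EGFR and OLIG2 were expressed, while SOX2, GFAP and S100B were at or near 0 in both groups. Endothelial and oligodendrocyte markers summed to at most 0.475 TPM. Neuronal markers summed to 5.92 to 7.81 TPM in control and 2.74 to 6.05 TPM in metformin libraries, nearly all from RBFOX3. White blood cell markers summed to 0.192 to 0.99 TPM in control and 9.28 to 12.03 TPM in metformin libraries, all but a trace from CD14, while the defining markers PTPRC, CD3E and AIF1 stayed at or below 0.369 TPM. In bulk RNA, fewer cells that express a gene and less of its RNA per cell cannot be told apart.

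Metformin went with higher RNA of 5 of the 8 genes tested, ATF3, PPP1R15A, CHAC1, ATF4 and CEBPB, and with lower RNA of DDIT3 as a part of all transcripts. By limma on log2(TPM + 1), 5 genes were higher and 1 lower at an adjusted p under 0.05. Among all 11313 genes tested, 8.0% were called higher and 41.8% lower, so a lower call was common and a higher call was not. The 12 libraries did not overlap, with metformin higher, for the same 5 genes, which held for 4.68% of all genes, while 37.3% of all genes had every metformin library below every control. TPM sums to the same total in each library, and over all genes the log2 fold change had a median of -0.36. Median-ratio scaling, which divides a library by the median of its ratios to the geometric mean over libraries, brought that median to 0.02, and the share of genes called was 23.4% higher and 25.5% lower. edgeR on exon reads, which scales libraries in a similar way, called 24.5% of genes higher and 25.9% lower. Log2 fold changes on the TPM + 1 scale understate changes of low genes.

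**Figure D1:**
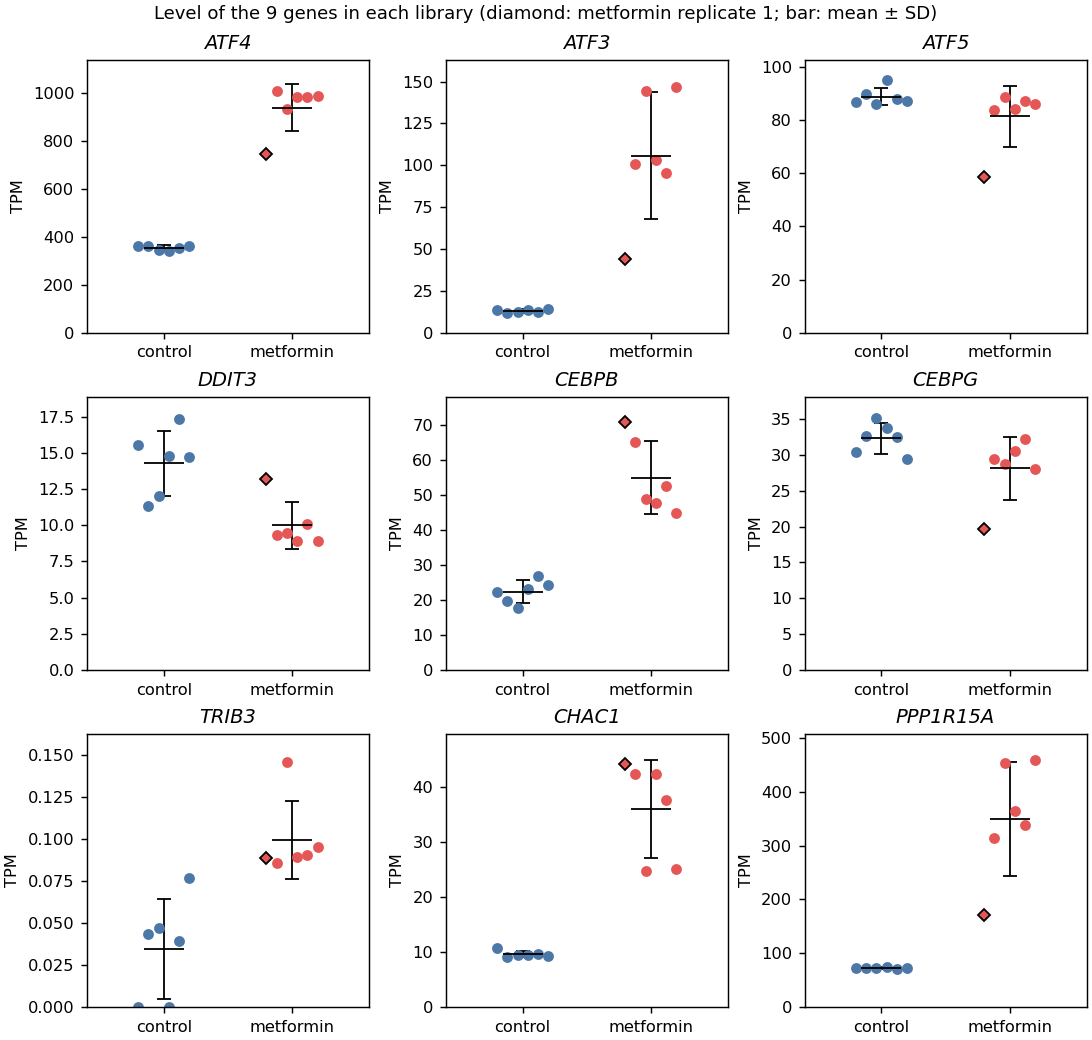
TPM (vertical axis, from 0) of each of the 9 genes in the 6 control and 6 metformin libraries, 1 point per library, with the mean and SD as bars and metformin replicate 1 as a diamond. ATF4, ATF3, CEBPB, CHAC1 and PPP1R15A have all 6 metformin points above all controls, DDIT3 has 5 of 6 metformin points below all controls, and TRIB3 lies below 0.15 TPM throughout.

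ATF4, the bZIP activator that the axis is named for, was the most abundant of the 9 mRNAs. Its level was 364, 363, 345, 343, 353 and 363 TPM in the 6 control libraries. In the metformin libraries it was 745 TPM in replicate 1 and 1009, 932, 985, 983 and 986 TPM in the other 5. The controls lay within a narrow band and every metformin library was at least at 745 TPM, with replicate 1 the lowest. The means were 355 ± 9.39 and 940.0 ± 98.7 TPM (SD, n = 6 each), 2.64-fold higher with metformin, and the limma log2 fold change was 1.39 ± 0.07 (SE, adjusted p = 2.4e-08). Scaled by the median ratio it was 1.83 ± 0.13 (adjusted p = 1.8e-07), and by limma on TPM without metformin replicate 1 it was 1.46 ± 0.03 (adjusted p = 7.8e-12). At chr22:39519695-39522685 the gene overlaps no other, and 100% of its exon reads were unique to it. MIEF1, which ends 1563 bp upstream on the same strand, had 53.7 TPM in control and 23.05 TPM in metformin libraries, so the levels of these neighbours differed in opposite directions.

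DDIT3, whose product CHOP pairs with C/EBP proteins and is known as a promoter of cell death under lasting stress, was not called higher in TPM, exon reads or junction reads by any fit run. It had 15.6, 11.4, 12.03, 14.8, 17.4 and 14.7 TPM in the controls. The metformin libraries had 13.2, 9.33, 9.46, 8.91, 10.1 and 8.94 TPM. Metformin replicate 1 lay inside the control range and the other 5 lay below it. The means were 14.3 ± 2.24 and 9.99 ± 1.64 TPM (SD, n = 6 each), and the limma log2 fold change was -0.48 ± 0.13 (SE, adjusted p = 0.0077), or -0.55 without metformin replicate 1 (adjusted p = 0.00031). After median-ratio scaling it was -0.07 ± 0.25 (adjusted p = 0.84), and by edgeR on exon reads -0.03 ± 0.28 (adjusted p = 0.94). By DESeq2 or quantile normalization it was slightly above 0, so the call was lost in each of these fits of all libraries. edgeR on exon reads without metformin replicate 1, a fit added after the data were seen, gave -0.38 ± 0.15 (adjusted p = 0.035). The other rescaled fits were not run without that library, so the parts of scaling and of that library were not tested. Reads were few, 110 to 192 exon reads per control library and 81 to 129 per metformin library. Its 3′ end at chr12:57516588-57521737 (minus strand) overlaps MARS1 by 982 bp and its 5′ end overlaps MBD6 by 1028 bp, both on the opposite strand. AC022506.1, on the same strand, overlaps DDIT3 by 2769 bp and averaged 0 TPM in both groups. Of the DDIT3 exon reads 95.9% were unique to the gene.

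ATF3, a bZIP factor induced by many stresses and a target of ATF4, had the largest fold of the 9 genes. In the controls it had 13.6, 11.7, 12.5, 13.8, 12.4 and 14.2 TPM. With metformin it had 43.8 TPM in replicate 1 and 100.9, 144, 103, 95.4 and 147 TPM in the others. The lowest metformin library was above every control, and the metformin libraries spread over a range of more than 100 TPM. The means were 13.0 ± 0.973 and 106 ± 37.7 TPM (SD, n = 6 each), 8.12-fold higher, with a limma log2 fold change of 2.83 ± 0.24 (SE, adjusted p = 1e-06) and 3.25 ± 0.13 after median-ratio scaling (adjusted p = 8.9e-10). Without metformin replicate 1 the limma value was 3.06 ± 0.12 (adjusted p = 3.8e-10). ATF3 is at chr1:212565334-212620777 and overlaps no other gene listed.

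ATF5, a bZIP factor whose mRNA is under the same kind of translational control as ATF4, had 86.8, 89.8, 86.2, 94.9, 88.1 and 87.0 TPM in the controls. With metformin it had 58.4 TPM in replicate 1 and 83.9, 88.5, 84.3, 87.0 and 86.0 TPM in the others. Replicates 2, 4 and 6 lay just below the control range and replicates 3 and 5 inside it. The limma log2 fold change was -0.14 ± 0.10 (SE, adjusted p = 0.26), which turned to 0.30 ± 0.10 after median-ratio scaling (adjusted p = 0.025) and 0.28 ± 0.09 by edgeR (adjusted p = 0.025). On TPM without metformin replicate 1, limma gave -0.05 ± 0.04 (adjusted p = 0.31). At chr19:49928702-49933935 ATF5 lies wholly within AC011452.2 on the opposite strand, which averaged 0 TPM in control and 0.118 TPM in metformin libraries. The 5′ end of ATF5 also overlaps NUP62 by 1062 bp and IL4I1 by 838 bp, both on the opposite strand. Of the ATF5 exon reads 95.4% were unique to the gene.

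The C/EBP partners of ATF4 differed from each other. CEBPB encodes C/EBPβ, an activator that can pair with ATF4 and with CHOP. It had 22.3, 19.6, 17.7, 23.3, 26.9 and 24.3 TPM in the controls and 70.9, 65.1, 48.8, 47.6, 52.7 and 44.9 TPM with metformin. The groups did not overlap, and here metformin replicate 1 was the highest library. The means of 22.4 ± 3.30 and 55.0 ± 10.5 TPM (SD, n = 6 each) differed 2.46-fold, with a limma log2 fold change of 1.25 ± 0.14 (SE, adjusted p = 8.6e-06) and 1.68 ± 0.27 after median-ratio scaling (adjusted p = 0.00023).

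CEBPG encodes C/EBPγ, a partner of ATF4 with no strong activation domain of its own. Its levels were 30.4, 32.6, 35.1, 33.8, 32.5 and 29.4 TPM in the controls and 19.7, 29.5, 28.8, 30.6, 32.2 and 28.0 TPM with metformin. Replicate 1 was again the lowest, and 3 of the 6 metformin libraries lay within the control range. The limma log2 fold change was -0.21 ± 0.11 (SE, adjusted p = 0.14), and 0.22 ± 0.09 after median-ratio scaling (adjusted p = 0.075). On TPM without metformin replicate 1, limma gave -0.11 ± 0.06 (adjusted p = 0.11). DESeq2 on exon reads was the only alternative in which CEBPG passed, at 0.23 (adjusted p = 0.036).

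PPP1R15A, the feedback subunit of the eIF2 phosphatase, had the tightest control libraries in relative terms, 73.0, 72.7, 72.7, 73.6, 70.5 and 71.8 TPM. With metformin it had 172 TPM in replicate 1 and 314, 454, 365, 339 and 459.5 TPM in the others. All metformin libraries stood far above the controls and spread widely among themselves, as for ATF3. The means of 72.4 ± 1.10 and 350.5 ± 106 TPM (SD, n = 6 each) differed 4.84-fold, with a limma log2 fold change of 2.19 ± 0.20 (SE, adjusted p = 1.7e-06) and 2.63 ± 0.08 after median-ratio scaling (adjusted p = 2.3e-10).

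CHAC1, a target of ATF4 and ATF3 that degrades glutathione, had 10.6, 9.15, 9.48, 9.53, 9.56 and 9.33 TPM in the controls. With metformin it had 44.2, 42.4, 24.7, 42.4, 37.6 and 25.1 TPM. The metformin libraries fell into a higher set of 4 and a lower pair, replicates 3 and 6, which were the 2 highest libraries for ATF3 and PPP1R15A. The means of 9.62 ± 0.526 and 36.1 ± 8.92 TPM (SD, n = 6 each) differed 3.75-fold, with a limma log2 fold change of 1.77 ± 0.16 (SE, adjusted p = 1.4e-06) and 2.18 ± 0.27 after median-ratio scaling (adjusted p = 2.5e-05). The nearest gene upstream, DLL4, 13889 bp away on the same strand, was at 0.698 TPM in control and 4.90 TPM in metformin libraries.

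TRIB3, a pseudokinase and a target of ATF4 and CHOP that binds both ATF4 and AKT, was barely detected. The control libraries had 0 to 2 exon reads, 5 in all, and the metformin libraries 2 to 3, 13 in all, with 1 junction read in each group. Its intron reads summed to 15 in control and 12 in metformin libraries. At its highest it had 0.0765 TPM in control and 0.146 TPM in metformin libraries, and although every metformin library was above every control in TPM, control replicate 6 had as many exon reads (2) as 5 of the metformin libraries. No fold is given at this depth.

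**Figure D2:**
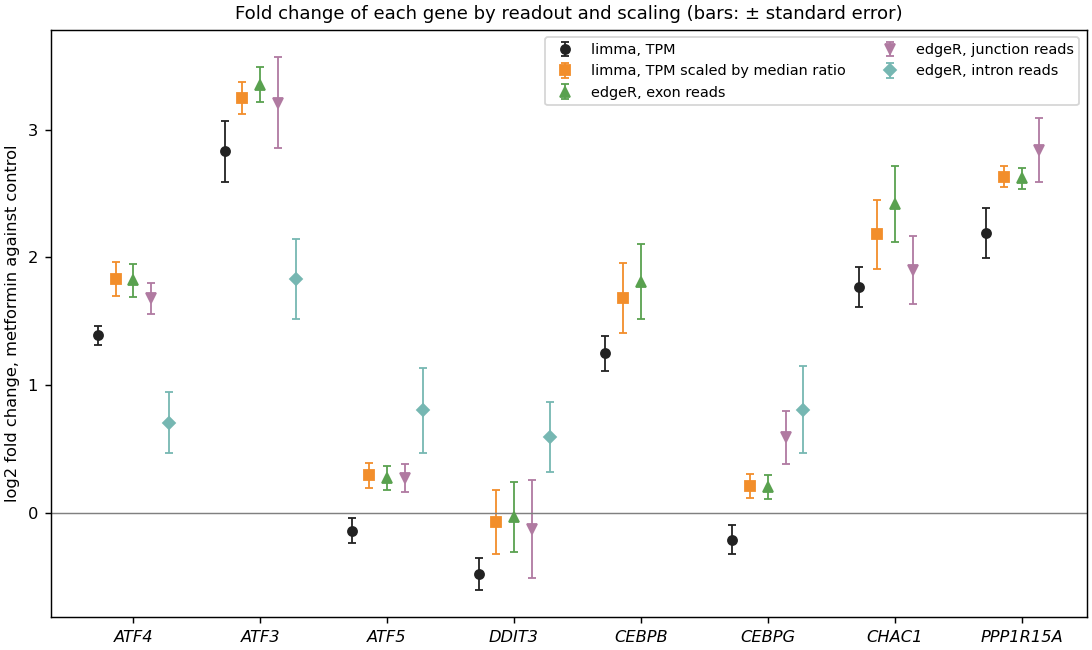
Log2 fold change, metformin against control, of the 8 genes tested (horizontal axis), each by limma on TPM, limma after median-ratio scaling, and edgeR on exon, junction and intron reads where tested, with ± SE as bars. ATF3, PPP1R15A, CHAC1, ATF4 and CEBPB lie above 0 by every readout in which they were tested, while ATF5 and CEBPG lie below 0 by limma on TPM and above 0 by the other readouts, and DDIT3 lies below 0 in all readouts plotted but intron reads (DESeq2 and quantile normalization, not plotted, gave 0.02 and 0.01).

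In the control libraries the levels ran from ATF4 (355 TPM) through ATF5 (88.8), PPP1R15A (72.4), CEBPG (32.3), CEBPB (22.4), DDIT3 (14.3), ATF3 (13.0) and CHAC1 (9.62) to TRIB3 (0.0343 TPM). ATF4 stood at the 97.1 percentile of the genes tested and CHAC1 at the 30.8 percentile. In that order only DDIT3 and ATF3 overlapped as neighbours in their control ranges. In the metformin libraries PPP1R15A (350.5 TPM) and ATF3 (106) came after ATF4 (940.0), ahead of ATF5 (81.4), CEBPB (55.0), CHAC1 (36.1), CEBPG (28.1) and DDIT3 (9.99 TPM). There the ranges of the neighbours ATF3 and ATF5, ATF5 and CEBPB, and CHAC1 and CEBPG overlapped. ATF3 and DDIT3, whose control ranges overlapped, did not overlap with metformin.

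A ratio between genes within a library hardly moves with library scaling, so each gene was set against ATF4 as the log2 ratio of TPM + 1. The 8 ratios share the ATF4 values and were tested by two-sided exact permutation of the 12 libraries, for which 0.00216 is the smallest p possible. After adjustment over the 8, 6 passed, among them TRIB3, which was near 0 in every library. The share of all genes that would pass was not computed, so the count says little about these genes as a set. ATF3 gained on ATF4, from -4.67 ± 0.11 to -3.23 ± 0.50 (SD, n = 6 each, a difference of 1.44, exact p = 0.00216, adjusted 0.00289). PPP1R15A also gained, from -2.28 to -1.48 (difference 0.80, exact p = 0.00216, adjusted 0.00289). These 2 genes thus rose more than ATF4 itself did.

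Of the 8 genes, DDIT3 lost the most against ATF4. Its log2 ratio was -4.46, -4.88, -4.73, -4.45, -4.27 and -4.53 in the controls and -5.71, -6.61, -6.48, -6.64, -6.47 and -6.63 with metformin, a difference of -1.87 (exact p = 0.00216, adjusted 0.00289). The groups did not overlap, and metformin replicate 1 lay between the controls and the other 5 libraries. CEBPG and ATF5 also lost, by differences of -1.60 and -1.53 (exact p = 0.00216, adjusted 0.00289 for each), with no overlap. Neither passed by limma on TPM (adjusted p = 0.14 and 0.26), while ATF4 rose by 1.39 there. Over all genes the median log2 fold change there was -0.36, beside -0.48 for DDIT3, -0.21 for CEBPG and -0.14 for ATF5. A gene at that median, or with unchanged TPM, would thus also lose against ATF4. These losses therefore do not set DDIT3, CEBPG or ATF5 apart from other genes. The TRIB3 ratio differed by -1.31 (exact p = 0.00216, adjusted 0.00289), but with TRIB3 near 0 in every library this ratio moves with ATF4 alone. CHAC1 and CEBPB did not pass, with differences of 0.37 (exact p = 0.0671, adjusted 0.0767) and -0.14 (exact p = 0.448). For CHAC1, 4 metformin libraries were above all controls and replicates 3 and 6 were below all of them, and leaving out replicate 3 or 6 brought it past the threshold (adjusted p = 0.0272 and 0.0223).

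**Figure D3:**
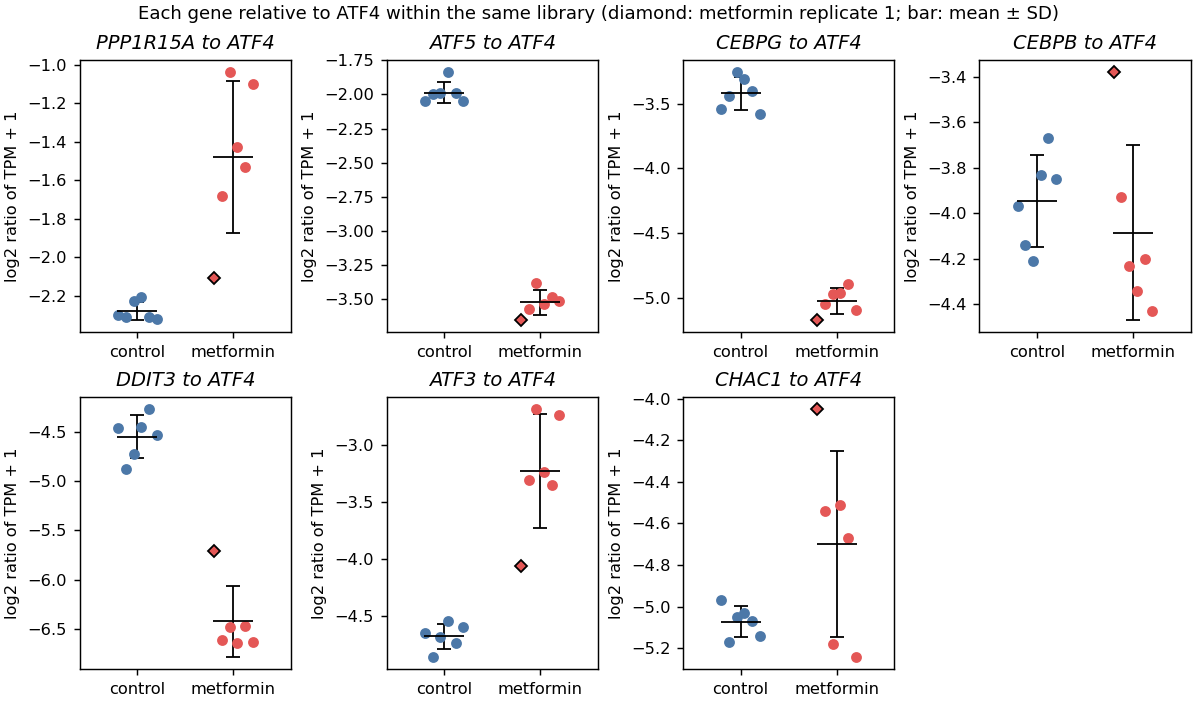
Log2 ratio of TPM + 1 of 7 genes to ATF4 in the same library (vertical axes, each with its own range and not from 0), 1 point per library, with mean and SD as bars and metformin replicate 1 as a diamond. DDIT3, ATF5 and CEBPG have every metformin point below every control, ATF3 and PPP1R15A every metformin point above, and CEBPB and CHAC1 have overlapping groups.

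Intron reads come mostly from RNA not yet spliced, and were tested by edgeR in the 11122 genes with a mean of at least 10 such reads, 5 of the 9 genes among them. ATF3 had 17 to 29 intron reads in control libraries and 45 to 105 in metformin replicates 2 to 6, against 4 in replicate 1. ATF3 intron reads rose by a log2 fold change of 1.83 ± 0.31 (SE, adjusted p = 0.00016) and ATF4 intron reads by 0.71 ± 0.24 (adjusted p = 0.019). CEBPG intron reads rose by 0.81 ± 0.34 (adjusted p = 0.049) and those counted for ATF5 by 0.80 ± 0.33 (adjusted p = 0.046), both just past the threshold, and DDIT3 was at 0.60 ± 0.27 (adjusted p = 0.070). The 4 of 5 genes called higher stand against 31.3% of genes called higher and 30.2% lower in this test. The count was 3 without control replicate 1 or 4, 1 without metformin replicate 2, where ATF4 was lost at 0.51 (adjusted p = 0.066), and 2 without any other library but metformin replicate 1, where it stayed at 4. No intron read of ATF5 and 8.25% of those of DDIT3 were unique to the gene. Both lie where annotated genes overlap, so the gene of origin of these reads cannot be told. Counting only unique reads, a fit added after the data were seen, ATF3, ATF4 and CEBPG were higher at 1.84, 0.72 and 0.82 (edgeR, adjusted p = 0.00015, 0.017 and 0.046).

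Within a gene, the share of intron reads among intron and exon reads moved in opposite directions for different genes. For ATF3 it was 5.70, 8.16, 11.6, 7.62, 6.67 and 6.06% in the controls and 0.48, 2.23, 3.61, 3.98, 3.72 and 3.91% with metformin. The groups did not overlap, and the means of 7.63% ± 2.13 and 2.99% ± 1.39 (SD, n = 6 each) gave an exact permutation p of 0.00216 (adjusted 0.00541 over the 5 genes). For ATF4 the share fell from 0.568% ± 0.118 to 0.299% ± 0.0417, again with no overlap (exact p = 0.00216, adjusted 0.00541). In both genes exon reads thus rose more than intron reads did. Summed over all genes, intron reads made up 5.14% to 7.36% of intron and exon reads in control and 4.15% to 7.48% in metformin libraries. How many of all genes had a lower intron share with metformin was not computed.

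For DDIT3 the share was 10.1% ± 4.39 in control and 16.5% ± 3.75 in metformin libraries (SD, n = 6 each, exact p = 0.0281, adjusted 0.0469), from reads that its neighbours share. That call was lost in 9 of the 12 fits that each left out 1 library, where the adjusted p lay between 0.0505 and 0.0938. The shares of CEBPG, from 2.66% to 4.76% (exact p = 0.119), and of ATF5, from 2.15% to 3.56% (exact p = 0.0887), did not pass. In both genes metformin replicate 1 had the lowest share of all 12 libraries, 0.334% and 0.237%. Without it both passed, with differences of 2.99 and 2.07 percentage points (exact permutation test, adjusted p = 0.0162 and 0.00722).

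**Figure D4:**
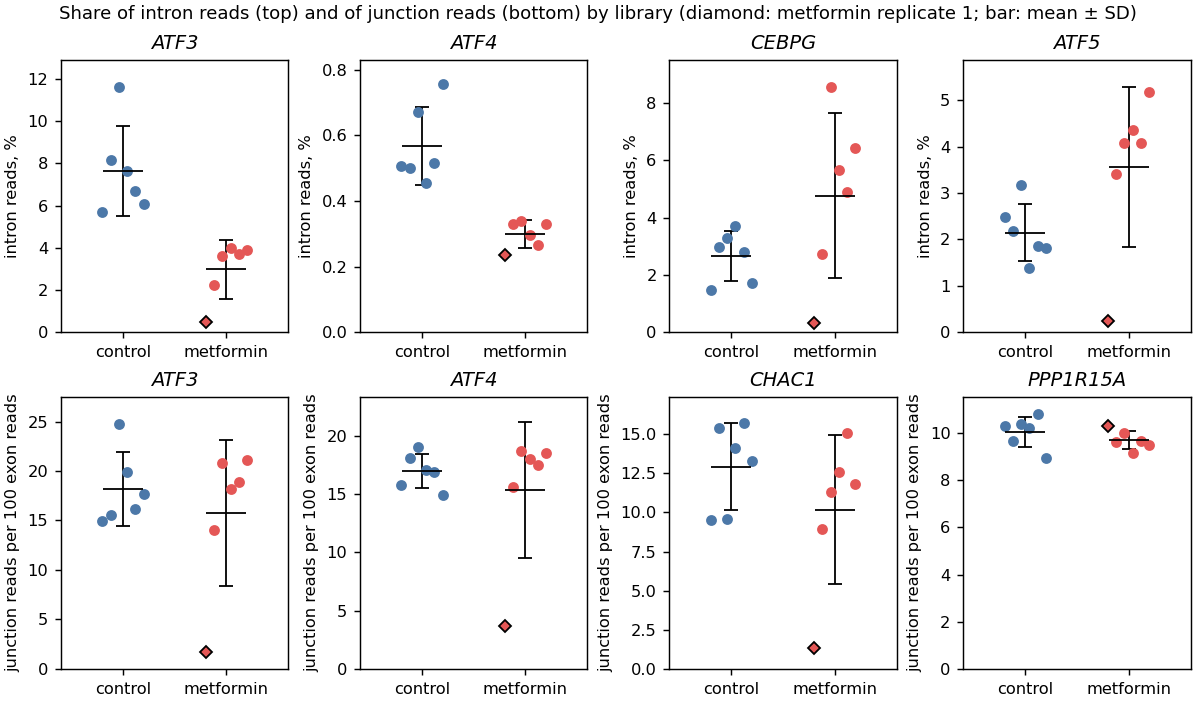
Top row, percent of intron reads among the intron and exon reads of ATF3, ATF4, CEBPG and ATF5 in each library; bottom row, junction reads per 100 exon reads of ATF3, ATF4, CHAC1 and PPP1R15A (vertical axes from 0, bars mean and SD). Intron shares of ATF3 and ATF4 are lower in every metformin library, and metformin replicate 1 (diamond) lies far below all others in junction reads for ATF3, ATF4 and CHAC1 but not for PPP1R15A.

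Junction reads, which come only from spliced RNA, gave the same order as TPM for ATF3, PPP1R15A, CHAC1 and ATF4. By edgeR in 10430 genes, 12.4% of genes were called higher and 15.9% lower, and of the 7 genes of the axis tested 5 were higher. ATF3 rose by a log2 fold change of 3.21 ± 0.36 (SE, adjusted p = 3.2e-05), PPP1R15A by 2.84 ± 0.25 (adjusted p = 6e-06), CHAC1 by 1.90 ± 0.27 (adjusted p = 0.00019) and ATF4 by 1.68 ± 0.12 (adjusted p = 1.3e-06). CEBPG passed narrowly at 0.59 ± 0.21 (adjusted p = 0.047), from 14 to 30 junction reads per control library, and was lost in 9 of the 12 fits that left out 1 library. ATF5 was at 0.28 ± 0.11 (adjusted p = 0.073), or 0.33 (adjusted p = 0.005) without metformin replicate 1. DDIT3 was at -0.12 ± 0.38 (adjusted p = 0.84), and above 0 but not called by DESeq2 (0.06) and without metformin replicate 4 (0.10). CEBPB has a single exon and no junction.

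Junction reads per 100 exon reads did not differ detectably between the groups for any of the 7 genes, with exact permutation p-values from 0.266 to 0.931 before adjustment. Metformin replicate 1 stood apart within its group. It had 1.69 junction reads per 100 exon reads for ATF3 against 14 to 21.1 in the other metformin libraries. For ATF4 it had 3.65 against 15.6 to 18.7, and for CHAC1 1.33 against 8.94 to 15.1. PPP1R15A was different, with 10.3 in replicate 1 and 9.17 to 10.0 in the others, a ratio of 1.07 to the pooled 5 libraries. Across 7518 genes the median of that ratio was 0.363, and 97.1% of genes had a lower one than PPP1R15A.

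Around the 9 genes, 102 further genes were followed in 7 lists, chosen with earlier results of these data known, and 97 passed the filter on low TPM. Of the 102, 26 are listed only as possible bZIP partners and not as parts of the pathway, so the pooled counts are not those of a pathway. By limma on TPM 27 of them were higher and 19 lower, beside 8.0% and 41.8% of all genes, and their median log2 fold change was -0.12 beside -0.36. After median-ratio scaling 52 were higher and 8 lower, beside 23.4% and 25.5% of all genes, with a median of 0.30 beside 0.02. Without metformin replicate 1 limma on TPM called 41 higher and 25 lower, with a median of 0.03 beside -0.22. That fit called 1933 higher and 5574 lower of all 11313 genes, more than with all libraries. These values over all genes are also those to set beside the counts of each list below.

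Of the 7 kinases that phosphorylate eIF2 and their inputs, 0 were higher and 3 lower on TPM, with a median of -0.70, beside 41.8% of all genes called lower. After median-ratio scaling the calls were 2 higher and 2 lower, and on TPM without metformin replicate 1 they were 1 and 4. The 2 higher after scaling were EIF2AK1, the heme-sensing kinase HRI (0.23, limma, adjusted p = 0.016), and EIF2AK3, the kinase PERK of the endoplasmic reticulum (0.95, limma, adjusted p = 0.017), both named after their values were seen. EIF2AK2, the kinase that senses double-stranded RNA, fell from 23.1 ± 5.35 to 12.8 ± 4.81 TPM (SD, n = 6 each), a change of -0.88 on the log2 scale (limma, adjusted p = 0.018). DELE1, which relays mitochondrial stress to the kinase HRI, fell from 33.4 to 20.2 TPM (-0.72, limma, adjusted p = 0.0013), and OMA1, the protease that cuts it, from 8.94 to 5.63 TPM (-0.70, limma, adjusted p = 0.044). EIF2AK2 and DELE1 remained lower after median-ratio scaling (-0.48 and -0.30), while OMA1 did not pass there (-0.35, adjusted p = 0.096) nor without 8 single libraries.

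The next list holds eIF2, its exchange factor eIF2B, the separate initiation factor eIF2A and the phosphatase partners. Of its 13 genes 1 was higher and 4 lower on TPM, with a median of -0.24, but 4 were higher and 0 lower after median-ratio scaling (median 0.19). Without metformin replicate 1 the calls on TPM were 2 and 5. PPP1R15B, the constitutive counterpart of PPP1R15A, rose from 37.2 ± 6.79 to 93.7 ± 40.2 TPM (SD, n = 6 each), a change of 1.11 on the log2 scale (limma, adjusted p = 0.034), and 1.54 after scaling. Its metformin libraries ran from 18.7 to 119 TPM, and the call was lost in 10 of the 12 fits without 1 library but not without metformin replicate 1 (1.52, adjusted p = 8e-07). The eIF2B subunits EIF2B1, EIF2B3 and EIF2B4 were lower by -0.51, -0.34 and -0.40, and none passed after scaling, where EIF2B3 and EIF2B4 turned to 0.09 and 0.03.

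Targets of ATF4 were uneven. Of 16 genes of amino acid synthesis and uptake tested, 5 were higher and 2 lower (median -0.03), or 10 and 0 after median-ratio scaling (median 0.40), and 8 and 3 on TPM without metformin replicate 1 (median 0.18). SLC38A2, a transporter of small neutral amino acids, rose from 71.1 ± 15.9 to 547 ± 271 TPM (SD, n = 6 each), a change of 2.70 on the log2 scale (limma, adjusted p = 0.00018), although its metformin libraries ran from 108 to 823 TPM. PHGDH, the first enzyme of serine synthesis, rose from 89.6 to 124 TPM (0.46, limma, adjusted p = 2e-05), and the glycine transporter SLC6A9 from 1.41 to 2.36 TPM (0.48, limma, adjusted p = 0.00032). The glutamine transporter SLC1A5 was lower, 253 against 181 TPM (-0.50, limma, adjusted p = 0.0031), but not after scaling (-0.07).

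Cytosolic aminoacyl-tRNA synthetases, which charge tRNAs with amino acids, had 1 of 12 genes higher and 1 lower on TPM (median -0.15), 7 higher and 1 lower after scaling (median 0.29), and 2 and 1 on TPM without metformin replicate 1. SARS1, for serine, rose from 221 to 266 TPM (log2 fold change 0.26, limma, adjusted p = 0.0063). AARS1, for alanine, stayed lower on both scales, at -1.0 and -0.57.

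Stress and signalling targets of ATF4 and CHOP had the most higher calls of the 7 lists, 12 of 18 higher and 1 lower, with a median of 1.02 (14 and 0, median 1.42, after scaling, and 13 and 3 without metformin replicate 1). SESN2, which restrains mTORC1 when amino acids run short, rose from 27.3 ± 1.58 to 87.8 ± 13.4 TPM (SD, n = 6 each), a change of 1.64 on the log2 scale (limma, adjusted p = 1.5e-07). GDF15, a secreted stress hormone, rose from 108 to 265 TPM (1.28, limma, adjusted p = 8.7e-07), and BBC3, the death factor PUMA, from 19.3 to 48.4 TPM (1.28, limma, adjusted p = 9.8e-07). VLDLR was the 1 gene lower, at -0.41 (limma, adjusted p = 0.034), and did not pass after scaling or in 6 of the fits without 1 library. All 3 named genes that rose are also known targets of other factors, p53 among them, and the part of each factor was not tested.

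Among 6 regulators of the ATF4 and CHOP proteins tested, TRIB1, the relative of TRIB3, rose from 7.75 ± 0.882 to 22.8 ± 7.50 TPM (SD, n = 6 each), a change of 1.38 on the log2 scale (limma, adjusted p = 0.00018), and BTRC, a ubiquitin ligase subunit that marks ATF4 for degradation, fell (-0.61, limma, adjusted p = 0.019). The other 4 did not pass on TPM, but of the 6 genes 4 were higher and 1 lower after scaling, and likewise on TPM without metformin replicate 1. Of 25 other genes listed as possible bZIP partners of ATF4, CHOP or C/EBP proteins, 7 were higher and 7 lower. The calls were 11 and 4 after scaling, and 11 and 8 on TPM without metformin replicate 1. CEBPZ, 1 of the 25, shares the C/EBP name but is not a bZIP factor. It passed neither on TPM nor after scaling (limma, adjusted p = 0.0875 and 0.28). JUNB rose from 31.2 to 173 TPM (2.41, limma, adjusted p = 8.4e-09), MAFF from 28.9 to 85.4 TPM (1.48, limma, adjusted p = 2.5e-05) and JUND from 35.0 to 103 TPM (1.45, limma, adjusted p = 6.9e-05). CEBPA was lower, 1.42 against 0.655 TPM (-0.55, limma, adjusted p = 0.00051), and did not pass after scaling (-0.31, adjusted p = 0.10).

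**Figure D5:**
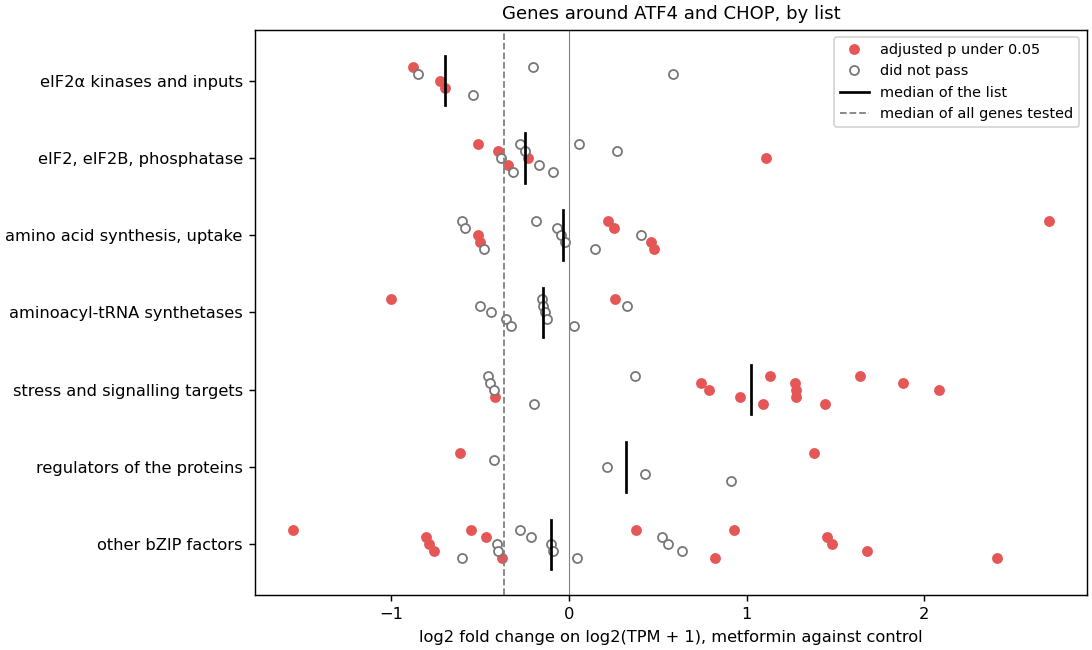
Log2 fold change on log2(TPM + 1), metformin against control (horizontal axis), of the 97 tested genes of 7 lists, 1 point per gene, filled where the adjusted p was under 0.05. Solid bars mark the median of each list and the dashed line that of all genes tested (-0.36), and the stress and signalling targets lie farthest to the right with a median of 1.02, while the eIF2 kinases and inputs have a median of -0.70.

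The genes whose profile over the 12 libraries was nearest to that of ATF4 were CDKN1A, PIM2 and CHIC2, with mean absolute differences of 0.05, 0.06 and 0.06 in log2(TPM + 1) taken from the control mean. CDKN1A, the cell cycle inhibitor p21, had 346 TPM in control and 936 TPM in metformin libraries. For DDIT3 the nearest were PRADC1, NTMT1 and NR2F6, with mean absolute differences of 0.07, 0.09 and 0.09, and each was lower with metformin in its mean TPM (39.5 to 28.4, 112 to 77.8 and 56.1 to 41.9). These are descriptions over 2 groups of 6 libraries that share depth and scaling.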

How the data were processed

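LN229 RNA was sequenced in 12 libraries, and the authors deposited 1 table per library. The deposited TPM values are the authors' own and add up to 1 total everywhere. RPKM, reads per exon length and library size as deposited by the authors, served as an alternative. The deposited counts give the reads of a gene in exons, introns and across junctions, not normalized by the authors. The deposited fractions (intron shares as computed by the authors) were not used. Strand setting, aligner and counter were not given in the sources used here. Mouse builds (GRCm38, mm10) are named in the submitters' processing notes, yet GENCODE release 29 for human holds 21377 of 21462 gene identifiers, 12004 with equal start and end. Coordinates of genes are those of the files.

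The study's methods name TPM, the limma package and an adjusted p under 0.05. The log scale, prior, filter and model were chosen here: limma 3.58.1 (R 4.3.3, trended prior, condition only) was run on log2(TPM + 1) for genes averaging 1 TPM or more, with Benjamini-Hochberg adjustment over all of them. edgeR 4.0.16 (quasi-likelihood, TMM) was run on intron and junction reads with a mean of at least 10, and DESeq2 1.42.0 was an alternative. Shares and ratios were compared with two-sided exact permutation tests over every split of the libraries, with adjustment by scipy 1.17.1. Fits by limma, edgeR and DESeq2 were first tried on simulated counts, with as many rises as falls and no library apart, unlike these data. The permutation test was checked only on small sets of values with known answers. No pair of replicates differed by less than sampling noise. The time of 5 h is from a legend of the study, which calls the controls vehicle.

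The members and lists were chosen with earlier results of these data known. Named were all 9 members, up to 3 genes per list with the smallest limma p in the direction most called genes take and the 1 smallest the other way, and the 3 nearest profiles of ATF4 and DDIT3; neighbours were named where they bear on the reads. Alternatives covered pseudocount, filter, RPKM, median-ratio and quantile scaling, tool, weights, a replicate block and leaving out each library. Unique intron reads, and edgeR without metformin replicate 1, were added after seeing the data.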

Additional observations from a re-analysis of the deposited data

Results flagged for a closer look

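In a group of 6 libraries, a library was singled out when its gap to the nearest other, as a part of the whole range of the group, exceeded Dixon's 95% critical value. This was met in 12 of 54 groups tested, where chance gives about 2.7, and metformin replicate 1 was the library apart in 9 of the 12.

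In TPM, metformin replicate 1 was lowest for ATF4 (745), ATF5 (58.4) and CEBPG (19.7) and highest for DDIT3 (13.2), and control replicate 1 was highest for CHAC1 (10.6). The intron share of ATF5 was 0.237% in metformin replicate 1. Junction reads per 100 exon reads in that library were 1.69 for ATF3, 3.65 for ATF4 and 1.01 for CEBPG, and control replicate 3 was high for DDIT3, at 30.0. In the log2 ratio to ATF4, metformin replicate 1 was high for DDIT3 (-5.71) and control replicate 4 for ATF5 (-1.84). Metformin replicate 1 also had the fewest exon reads of the 12 libraries (14331617), and the part of that in these values was not tested.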

How the results depend on the processing

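Of 1386 values under alternatives, 1227 kept their direction and their side of the threshold (or their size), 100 lost significance, 7 gained it, 27 counts moved by more than 1.5 times and 25 values changed sign. The 5 higher calls of ATF3, ATF4, CEBPB, CHAC1 and PPP1R15A passed in every alternative run on TPM, RPKM or exon reads. The single lower call, DDIT3, left a count of 0 with RPKM, median-ratio or quantile scaling, edgeR, DESeq2, or a log2 fold change of at least 1 required. All of these used every library, and edgeR without metformin replicate 1 called DDIT3 lower, at -0.382 (adjusted p = 0.0349). DDIT3 turned to 0.0147 with quantile scaling and 0.0161 by DESeq2. ATF5 turned positive, to 0.295 by median ratio, 0.0114 by quantile, 0.277 by edgeR, 0.306 by DESeq2 and 0.195 by edgeR without metformin replicate 1, and CEBPG likewise to 0.216, 0.127, 0.205, 0.232 and 0.133. EIF2B3 turned to 0.0914, 0.0845 and 0.116, and EIF2B4 to 0.0307, 0.0347 and 0.0661, by median ratio, edgeR and DESeq2. In junction reads DDIT3 was 0.0593 by DESeq2, and -0.476 to 0.102 without single libraries (0.102 without metformin replicate 4). Differences in junction share without single libraries ran from -3.45 to 0.432 (ATF3), -2.32 to 0.699 (ATF4) and -1.22 to 1.55 (ATF5), with each highest value without metformin replicate 1, and for ATF5 were also above 0, at 0.0686 and 0.0843, without control replicates 3 and 4. List genes called higher were 52 by median ratio and by edgeR, 58 by DESeq2, 46 with array weights and 62 by edgeR without metformin replicate 1, and 25 to 41 without single libraries. List genes called lower were 33 with RPKM and 8 by median ratio, edgeR and DESeq2. Intron-read calls were 1 to 4, and intron-share calls 2 to 5, without single libraries. The cause of these changes was not tested. Replicate numbers were not taken as pairs, since the study calls the libraries independent experiments. Deviations of same-numbered libraries correlated from -0.647 to 0.721, and 2 of 6 correlated best with their own number, which cannot exclude a pairing. With the replicate block, intron-read calls were 2, and ATF5 and CEBPG intron reads and CEBPG junction reads lost significance. Depth limits TRIB3 (18 exon reads in 12 libraries), DDIT3 and the intron and junction counts of all members.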
